A study of Homo sapiens with 4 samples.

Results

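TMEM and SMIM genes encode proteins named for little more than crossing a membrane. A TMEM number marks a transmembrane protein, often with several membrane spans, and an SMIM number marks a small integral membrane protein, usually with a single span. The members are the genes whose probe sets carry a single platform gene symbol of TMEM or SMIM followed by a number and, for TMEM, at most 1 letter. They number 237 of 19775 genes with such a probe set, made up of 24 SMIM genes on 42 probe sets and 213 TMEM genes on 405 probe sets. The families were selected on measured values, the IP minus lysate changes of these arrays, in which TMEM167A and TMEM230 had been seen to fall. The changes below are therefore a description, and the calls among the members are not a test of the families.

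RNA bound to FMRP was compared with the RNA of the lysate it was drawn from. FMRP binds RNA, travels with polyribosomes and represses translation of many mRNAs it binds, and fragile X syndrome follows its loss. The IP group comprised 2 samples of RNA recovered with an anti-FLAG antibody from FLAG- and HA-tagged FMRP after washes at 300 mM KCl. The lysate group comprised 2 samples of total RNA taken before the IP. All 4 samples came from a Flp-In T-REx HEK293 line, human embryonic kidney cells with a stable transgene, induced with 1 µg/ml doxycycline for 16 h, so both groups carry the induced transgene. No mock IP is among these samples. Each sample of 2 µg RNA was hybridized to its own Affymetrix U133 Plus 2.0 array, a panel of short probe sets against human transcripts. The labels do not say whether replicates came from separate cultures, so p-values measure only the spread between these samples, which may be technical.

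Membrane proteins of this kind are mostly made by ribosomes docked at the endoplasmic reticulum (ER), inserted by the translocon and its helper complexes, and sorted along the secretory pathway. Others are made for the mitochondrial membranes. Short single-span proteins depend more often on routes that act after translation. The families share a naming scheme and no common ancestor, so members differ widely in size, location and role.

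Values are log2 probe set signals, and a change is the IP mean minus the lysate mean on that scale. A probe set entered if its mean over the 4 arrays reached 4.70, about the midpoint of the table, and the brightest such probe set stood for its gene. This left 13157 genes, among them 180 members, 16 SMIM and 164 TMEM. The other 57 members, 8 SMIM and 49 TMEM, were too dim, and their brightest probe sets changed by -1.73 to 1.13 with a median of 0.00. Of the 180, 7 had a group mean below the filter and passed through their other group, 3 of them dim in the IP and 4 dim in the lysate. Just outside the filter, TMEM52 had a mean of 4.68, with 4.55 and 4.34 in the IP against 4.66 and 5.17 in the lysate. Just inside it, TMEM140 had a mean of 4.75, with 4.67 and 5.52 in the IP against 3.76 and 5.05 in the lysate.

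Technical controls on the same arrays differed between the groups. The array medians were 4.67 and 4.70 in the IP and 4.71 and 4.71 in the lysate, so the arrays had been scaled to each other and every change is relative to other transcripts. The median of the hybridization controls, RNAs added with the hybridization mix, was 9.69 ± 0.19 in the IP and 9.16 ± 0.08 in the lysate (log2, SD, n = 2 each). The 3' probe set of the ACTB control exceeded the 5' one by 3.02 and 2.96 in the IP, against 1.37 and 1.34 in the lysate. For GAPDH the same difference was 0.94 and 1.03 in the IP and 0.19 and 0.19 in the lysate. Signal thus declined more steeply towards the 5' end in the IP, and the part of this in the changes below was not tested. Of 8 HEK293 markers, 7 stood above every array median, NEFM being the exception, as did 3 of 7 markers of other cell types, HBB, PECAM1 and COL1A1.

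Genes of both families were lower in the IP more often than higher. Of 16 SMIM genes tested, 12 were lower, 1 was higher and 3 did not pass (limma, adjusted p at most 0.05 over all genes). The higher gene, SMIM24, and 1 of the lower, SMIM10, passed the filter through 1 group only. Of 164 TMEM genes tested, 83 were lower, 25 were higher and 56 did not pass. Over all 13157 genes 28.8% were lower and 35.0% were higher, against 75% lower and 6.25% higher for SMIM genes and 50.6% lower and 15.2% higher for TMEM genes. IP and lysate values did not overlap for 14 SMIM and 143 TMEM genes, beside 82.3% of all genes. The share called in either direction was 81.2% for SMIM genes and 65.9% for TMEM genes, beside 63.9% over all genes. At least 2-fold lower were 65 members, 3 of them with an IP mean under the array medians, and at least 2-fold higher were 5. Over all genes 12.8% were at least 2-fold lower and 12.5% at least 2-fold higher. The median change was -0.97 for SMIM genes and -0.43 for TMEM genes, beside 0.08 for all genes.

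**Figure D1:**
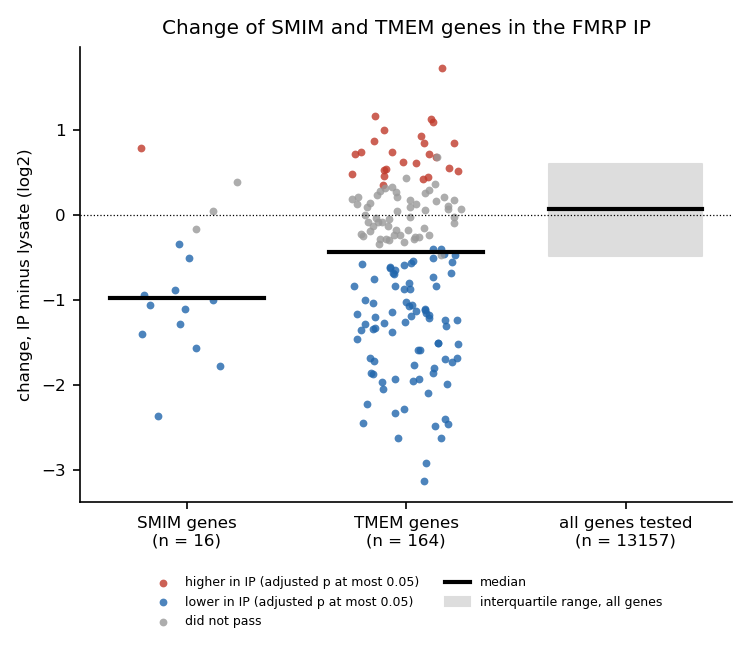
Change of each SMIM and TMEM gene (points, IP minus lysate, log2) with the family median (black line), beside the median and interquartile range of all 13157 genes (grey). The SMIM median lies at -0.97 and the TMEM median at -0.43, and the SMIM points fall inside the range of the TMEM points.

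The counts in each direction depend on the scale to which changes are tied. With each array centred on its hybridization controls every change was lower by 0.53 and the table as a whole had a median of -0.45. On that scale 14 SMIM genes were lower and 0 higher, and 113 TMEM genes were lower and 5 higher. Over all 13157 genes 6442 were lower and 1634 higher on that scale, which stands beside every later count with this centring. All 12 of the largest falls still passed there, and 5 of the 12 largest rises.

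SMIM genes were compared with TMEM genes through their medians on each array. Against the lysate mean, SMIM genes had a median of -0.85 in IP replicate 1 and -1.04 in IP replicate 2. TMEM genes had -0.39 in IP replicate 1 and -0.50 in IP replicate 2. The SMIM minus TMEM difference of medians was -0.54 overall and between -0.63 and -0.37 over the 4 pairings of an IP with a lysate array. It kept its sign in each pairing. Its size moved with the setting. It was -0.20 over all 237 members with no filter on low values and -0.21 over the 8 SMIM and 102 TMEM genes of a stricter filter. Over the 5 SMIM and 55 TMEM genes with several probe sets that all point the same way it was -0.05. When probe sets were averaged it was larger in size than in the main setting. The cause of these moves was not tested. The individual values overlapped, with an SMIM range of -2.36 to 0.80 inside a TMEM range of -3.13 to 1.74. The interquartile ranges were -1.31 to -0.29 for SMIM genes and -1.26 to 0.17 for TMEM genes. These ranges overlapped over most of the SMIM one, with the upper quartiles further apart than the lower ones.

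SMIM30, which encodes a microprotein from a transcript once annotated as noncoding, had the lowest SMIM value. It stood at 6.04 and 5.04 in the IP and at 8.18 and 7.61 in the lysate, a change of -2.36 ± 0.32 (moderated SE of limma, n = 2 each). Here and below the SE of a change draws partly on the spread of all genes, not on the gene's own arrays alone. The IP arrays differed more than the lysate arrays, and both lay below both of those. SMIM15 stood at 8.20 and 7.89 in the IP against 9.88 and 9.75 in the lysate, a change of -1.77 ± 0.14. SMIM14 had 6.03 and 5.35 in the IP against 7.38 and 7.12 in the lysate, and its 3 probe sets changed by -1.56 to -1.05. The groups did not overlap for any of these genes.

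The mitochondrial SMIM genes tested were lower. SMIM20, whose product takes part in the assembly of cytochrome c oxidase, stood at 6.88 and 6.77 in the IP against 8.36 and 8.09 in the lysate, a change of -1.40 ± 0.14. SMIM26, encoding a mitochondrial protein, stood at 9.87 and 9.88 in the IP against 11.18 and 11.13 in the lysate, a change of -1.28 ± 0.11. It was the brightest SMIM gene, and its replicates lay close together within each group. SMIM8 stood at 6.49 and 6.09 in the IP against 7.29 and 7.17 in the lysate, and its 3 probe sets ranged from -2.29 to -0.89.

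Of the other lower SMIM genes, SMIM7 changed by -1.10 and SMIM19 by -0.99, and their arrays did not overlap between groups. The 5 probe sets of SMIM7 reached from -1.55 to 0.05, so it is the SMIM gene whose probe sets disagreed in sign. SMIM27 changed by -0.88, and its second probe set by -2.12. SMIM10 stood at 4.72 and 4.23 in the IP, with a mean of 4.47 below the filter, against 5.71 and 5.34 in the lysate. It entered through its lysate values, so its place among the lower SMIM genes is uncertain and no fold is given. SMIM13 (-0.50) did not pass without IP replicate 2 (-0.41) or without lysate replicate 1 (-0.40). SMIM3 (-0.34) did not pass with any of the 4 arrays left out, at -0.40 to -0.28, nor with no filter on low values.

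The remaining 4 SMIM genes were not called lower. SMIM11 stood at 6.59 and 6.69 in the IP and at 6.92 and 6.68 in the lysate, with overlapping groups, and its 3 probe sets changed by -0.38 to -0.16. SMIM29 stood at 5.89 and 5.65 in the IP and at 5.55 and 5.88 in the lysate, also overlapping. With hybridization control centring both were called lower, SMIM11 at -0.69 and SMIM29 at -0.47. SMIM1, whose product carries the Vel blood group antigen, had 5.43 and 5.55 in the IP against 4.87 and 5.32 in the lysate, a change of 0.40 that passed only without lysate replicate 2 (0.62) or with the replicate block or quantile normalization, and that was -0.13 with hybridization control centring. SMIM24 was the higher SMIM gene, at 5.11 and 5.31 in the IP against 4.48 and 4.35 in the lysate. Its lysate values lie below the array medians, it entered through its IP values, no fold is given, and with hybridization control centring it did not pass. The SMIM genes not called lower were among the dimmer ones.

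**Figure D2:**
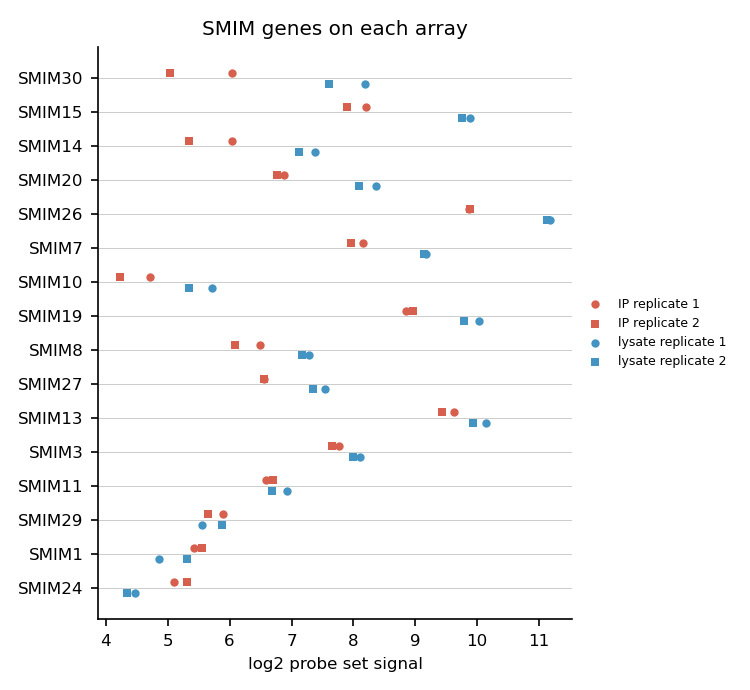
Log2 signal of the 16 SMIM genes on each array, ordered from the largest fall to the largest rise, with the IP arrays in red above the lysate arrays in blue. IP and lysate points are separated for 14 of the 16 genes and overlap for SMIM11 and SMIM29.

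The largest falls among the TMEM genes belonged to several compartments. TMEM167A, the counterpart of a yeast protein needed in the early secretory pathway, stood at 7.37 and 7.13 in the IP against 10.41 and 10.33 in the lysate. It was 8.73-fold lower in the IP, and its second probe set changed by -2.37. TMEM230, a membrane protein of vesicle trafficking, stood at 9.39 and 8.69 in the IP against 11.99 and 11.92 in the lysate, and its second probe set changed by -3.38. These are bright transcripts in the lysate, and both IP arrays lay far below it for each gene.

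Other large falls concerned the ER and its channels. TMEM258, a subunit of the oligosaccharyltransferase that attaches N-glycans, stood at 9.50 and 8.69 in the IP against 11.70 and 11.73 in the lysate, a change of -2.62 ± 0.24. TMEM38B, an intracellular cation channel of the ER known as TRIC-B, stood at 8.16 and 7.44 in the IP against 10.27 and 10.27 in the lysate, and its 3 probe sets ranged from -2.48 to -1.93. TMEM33, an ER protein that binds reticulons, stood at 7.90 and 7.51 in the IP against 10.26 and 9.94 in the lysate, with 4 probe sets from -2.75 to -1.44. For these 3 genes every kept probe set was lower in the IP.

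The other 6 TMEM genes of the 12 largest falls were TMEM14B, TMEM64, TMEM256, TMEM123, TMEM170A and TMEM267. The first 5 changed by -2.62, -2.45, -2.44, -2.32 and -2.22. TMEM123 encodes porimin, a cell surface glycoprotein. TMEM267 stood at 4.67 and 4.54 in the IP, with a mean below the array medians, against 6.90 and 6.87 in the lysate. It entered through its lysate values, so its place among the 12 is uncertain and no fold is given. TMEM170A was less uniform, with other probe sets reaching 0.19. TMEM256 differed most between IP arrays, at 7.39 and 6.35, against 9.34 and 9.28 in the lysate. Including SMIM30, the highest adjusted p among the 12 was 4.0e-04 (limma), and all 12 still passed with any 1 array left out. The probe sets of TMEM14B, TMEM258, TMEM38B and SMIM30 are of a class that can cross-hybridize.

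The IP arrays were not equal in depth of the falls. Of the 95 lower members, 76 had their lower IP value on IP replicate 2. Of the 26 higher members, 21 had their higher IP value there. No such counts are given over all genes. Across all genes tested IP replicate 2 also correlated less with the lysate arrays (Pearson's r 0.873 and 0.880) than IP replicate 1 did (0.897 and 0.903). IP replicate 2 thus stood further from the lysate in both directions among these members, and further across all genes by correlation. Without it 10 SMIM and 81 TMEM genes were lower, and without IP replicate 1 it was 11 and 84.

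The rises were smaller than the falls. TMEM132E, a deafness gene, led them, at 9.69 and 9.80 in the IP against 7.92 and 8.09 in the lysate, which is 3.34-fold higher in the IP. TMEM44 stood at 6.40 and 6.55 in the IP against 5.36 and 5.25 in the lysate, although its second probe set changed by -0.19. TMEM86B, encoding lysoplasmalogenase, which cleaves vinyl ether lipids, stood at 6.45 and 6.26 in the IP against 5.07 and 5.37 in the lysate. TMEM131L stood at 8.45 and 8.63 in the IP against 7.41 and 7.46 in the lysate, a change of 1.10 ± 0.12. The IP and lysate arrays did not overlap for these 4 genes, which the choice of the largest rises required. Of all genes 82.3% had no overlap.

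TMEM43, encoding the inner nuclear membrane protein LUMA, which is mutated in an arrhythmogenic cardiomyopathy, stood at 9.78 and 9.84 in the IP against 8.79 and 8.83 in the lysate, and its second probe set changed by 0.56. The other genes of the 12 largest rises were TMEM129, TMEM231, TMEM200B, TMEM132A, TMEM201 and TMEM79, with changes between 0.75 and 0.94, and the dim gene SMIM24, whose place among them is uncertain. TMEM129 is a ubiquitin ligase of ER-associated degradation, TMEM201 a nuclear envelope protein, and TMEM79 the skin barrier protein mattrin. TMEM132A and TMEM201 had other probe sets that reached -0.41 and -0.31. TMEM132A did not pass with unique probe sets (0.04), and neither gene passed when its probe sets were averaged. Among the 12 the highest adjusted p was 0.00175 (limma), and all still passed with any 1 array left out. With hybridization control centring 7 of them did not pass, and those that did were TMEM132E, TMEM44, TMEM86B, TMEM131L and TMEM43. The probe sets of TMEM43, TMEM129, TMEM200B and TMEM132A can cross-hybridize.

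**Figure D3:**
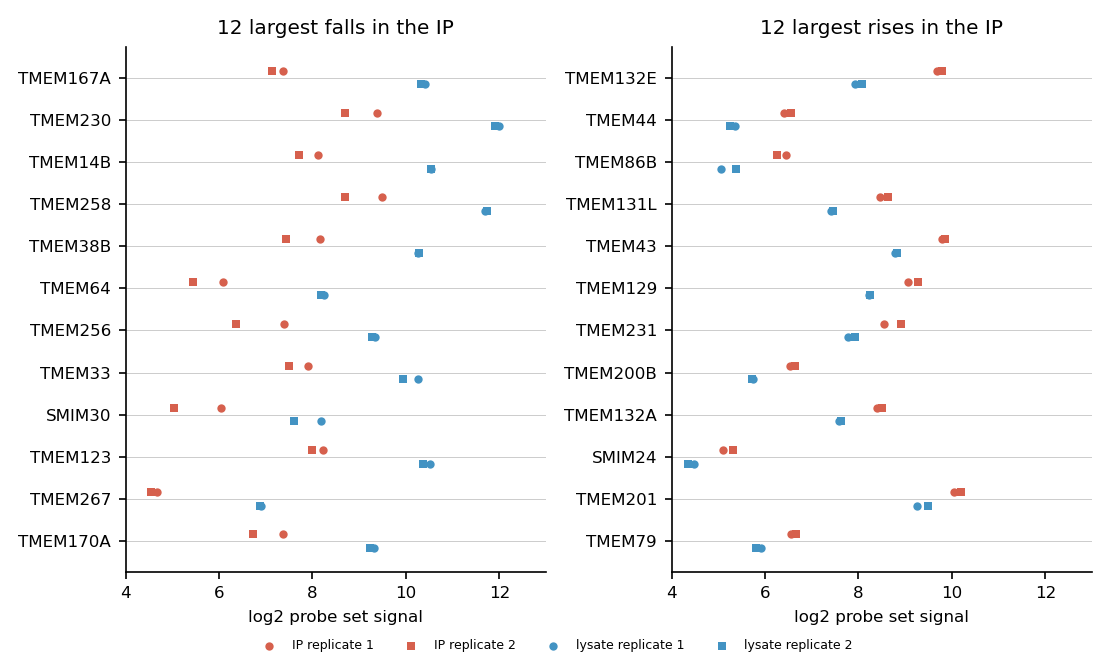
Log2 signal on each array for the 12 largest falls (left) and the 12 largest rises (right) among SMIM and TMEM genes, with IP arrays in red and lysate arrays in blue. The 24 genes were chosen among called genes with no overlap of IP and lysate arrays, so their separation was set by the choice. Of all genes 82.3% had no overlap. The mean differences are larger in size on the left (2.22 to 3.13) than on the right (0.75 to 1.74).

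Members with a known mitochondrial place were mostly lower. Of 17 tested, 14 were lower, none was higher and 3 did not pass, with a median change of -1.27. Over all genes 28.8% were lower and 35.0% higher, which stands beside this and each compartment or partner count below. TMEM126B, part of the complex that assembles respiratory complex I, stood at 8.35 and 8.14 in the IP against 10.26 and 9.93 in the lysate. TMEM160 stood at 7.22 and 6.96 in the IP against 8.91 and 8.98 in the lysate. TMEM143 stood at 8.02 and 8.16 in the IP against 7.86 and 7.88 in the lysate, a change of 0.22 that did not pass. When probe sets were averaged 12 were lower, and TMEM143 was called higher (0.31). With unique probe sets 9 of 12 members were lower and 1 higher, beside 2858 lower and 3360 higher of 9977 genes in all. TMEM70 and TMEM223, both counted as lower, had other probe sets reaching 0.60 and 0.14. These 2 genes were named after their values were seen. Of 12 assembly factors of complexes I and IV outside the TMEM and SMIM families, 6 were lower and 1 was higher, with a median of -0.53. COX18 (-1.93) and COA1 (-1.85) were the lowest and ACAD9, a partner of TMEM126B in complex I assembly, changed by 1.14. With hybridization control centring 11 of the 12 assembly factors and 16 of the 17 mitochondrial members were lower, beside 6442 of all 13157 genes.

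Members of the ER and early secretory pathway were lower in 14 of 21 cases and higher in 3, with a median of -1.15. TMEM167A and TMEM258 led the falls, and TMEM147, a partner of the translocon, changed by -1.99. TMEM129 stood at 9.07 and 9.28 in the IP against 8.23 and 8.25 in the lysate, and the other higher genes were TMEM115 (0.62) and TMEM259 (0.52), these 2 and TMEM147 being named after their values were seen. With hybridization control centring 17 of the 21 were lower and none was higher. Among 18 genes of ER membrane insertion machinery outside the families, 8 were lower and 5 higher, with a median of -0.30. With hybridization control centring 11 were lower and 2 higher (median -0.83), and with unique probe sets 7 of 14 were lower and 1 higher. MMGT1 and EMC6, both subunits of the ER membrane complex, changed by -2.83 and -1.74. EMC1, another subunit, stood at 10.05 and 10.13 in the IP against 8.67 and 8.85 in the lysate. Subunits of 1 complex thus lay on both sides of 0.

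The ciliary transition zone is a gate at the base of the cilium, and TMEM proteins form part of its membrane complex. Of its 9 TMEM genes, 6 were lower and 1 higher, with a median of -0.86. With hybridization control centring 6 of them were lower and 0 higher, with a median of -1.40. TMEM218 stood at 6.11 and 6.07 in the IP against 7.67 and 7.87 in the lysate, and TMEM107 at 7.62 and 7.46 in the IP against 8.63 and 8.91 in the lysate. TMEM231 went the other way, at 8.55 and 8.91 in the IP against 7.78 and 7.92 in the lysate. Of 11 partner genes of the same zone outside the TMEM family, 2 were lower and 5 higher, with a median of 0.22 that turned to -0.31 with hybridization control centring, where 5 were lower and 4 higher. B9D1 changed by -1.21, and MKS1 and NPHP4 by 1.47 and 1.69. The difference between the TMEM genes and their partners was not tested.

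In the 3 other compartments the counts were small and moved with the scale, and no test compared compartments. Of 10 endosome and lysosome members 4 were lower and none higher (median -0.26), beside 28.8% lower and 35.0% higher over all genes. With hybridization control centring 8 were lower (median -0.79), beside 6442 of all 13157 genes. With the stricter filter 4 of 5 were lower (median -0.83), beside 2932 of all 8300 genes of that filter. Besides TMEM230, TMEM106B, a lysosomal protein linked to frontotemporal dementia risk, stood at 6.84 and 6.99 in the IP against 8.50 and 8.35 in the lysate, and TMEM63B, at 0.14, did not pass. Of 8 nuclear envelope members 4 were lower and 2 higher (median -0.37), TMEM18 changing by -1.87, TMEM53 by -0.86 and TMEM43 by 1.00, and with centring 6 were lower and 1 higher. Of 7 members in the list of plasma membrane channel and lipid transport genes 1 was lower and none higher (median -0.22), and with centring 4 were lower. The lower gene, TMEM150C (-0.54), had another probe set at 0.35 and did not pass without lysate replicate 2. TMEM37 and TMEM63C, at -0.47 and 0.37, did not pass. TMEM37 was called lower without IP replicate 1 (-0.83), with the replicate block and with hybridization control centring, and TMEM63C higher without lysate replicate 2 (0.63). Some genes stand in 2 of these groups. TMEM63A, TMEM63B and TMEM175 are in both the endosome and lysosome list and the plasma membrane list, so the latter is not made of plasma membrane proteins alone.

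Genes that share a TMEM number often differed from each other. There were 26 such families with 56 tested genes, and their changes were all below 0 in 13, all above 0 in 3 and on both sides in 10. The ER channel pair had the widest range, 2.20, since TMEM38B changed by -2.48 while TMEM38A, the TRIC-A channel, stood at 6.24 and 6.07 in the IP against 6.46 and 6.41 in the lysate, a change of -0.28 that did not pass (limma, adjusted p = 0.0778). TMEM167B, at 6.88 and 6.43 in the IP against 7.98 and 7.85 in the lysate, was lower by 1.26, a smaller fall than that of TMEM167A. The TMEM106 genes spread from TMEM106B (-1.51) and TMEM106C (-1.23) to TMEM106A (0.35). The TMEM106A change did not pass without IP replicate 1 (0.30), lysate replicate 1 (0.34) or lysate replicate 2 (0.36), and with hybridization control centring it was -0.18.

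TMEM131, which helps collagen secretion, changed by -0.54 and TMEM131L by 1.10. TMEM131 did not pass without IP replicate 2 (-0.38) or lysate replicate 1 (-0.40). TMEM126A stood at 8.56 and 8.53 in the IP against 9.21 and 9.02 in the lysate, a change of -0.57, while its neighbour on the chromosome, TMEM126B, changed by -1.85. The narrowest families were TMEM184, whose A, B and C genes changed by -0.13, -0.15 and -0.08, TMEM198 with its pseudogene TMEM198B, at -0.18 and -0.28, and TMEM39, at -0.61 for TMEM39A and -0.24 for TMEM39B. No gene of the TMEM184 or TMEM198 families passed, and all of them were lower with hybridization control centring. The 3 TMEM14 genes all fell, and TMEM14C, which serves haem synthesis in mitochondria, stood at 8.95 and 8.85 in the IP against 10.22 and 10.49 in the lysate.

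**Figure D4:**
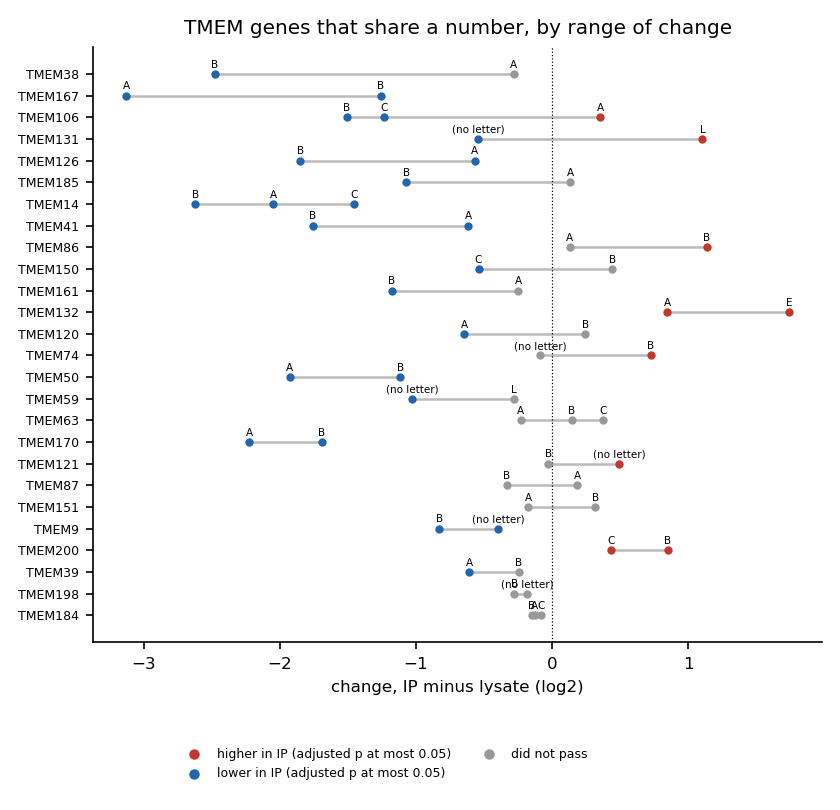
Change (IP minus lysate, log2) of TMEM genes that share a number, 1 row per number, ordered from the widest range at the top to the narrowest at the bottom, with the gene's final letter above its point. The TMEM38 pair spans 2.20 and the TMEM184 genes lie within 0.07 of each other.

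The share of lower members differed with signal strength. Among members with a mean signal below 6, 19.4% of 31 were lower, beside 17.6% of all genes in that range. The share was 37.2% of 43 members between 6 and 7, 60.6% of 33 between 7 and 8, 70.5% of 44 between 8 and 9, and 75.9% of 29 at 9 and over. Over all genes the same shares were 27.1%, 31.3%, 32.8% and 34.9%. The share of higher members stayed between 12.1% and 19.4% in the 5 ranges. Over all genes the share higher was 21.0% below 6, where it was 19.4% for members. In the ranges above, it was 34.0%, 39.8%, 40.1% and 40.7% over all genes. The shares called lower lay furthest apart between members and all genes where signal was strong, which was not tested.

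**Figure D5:**
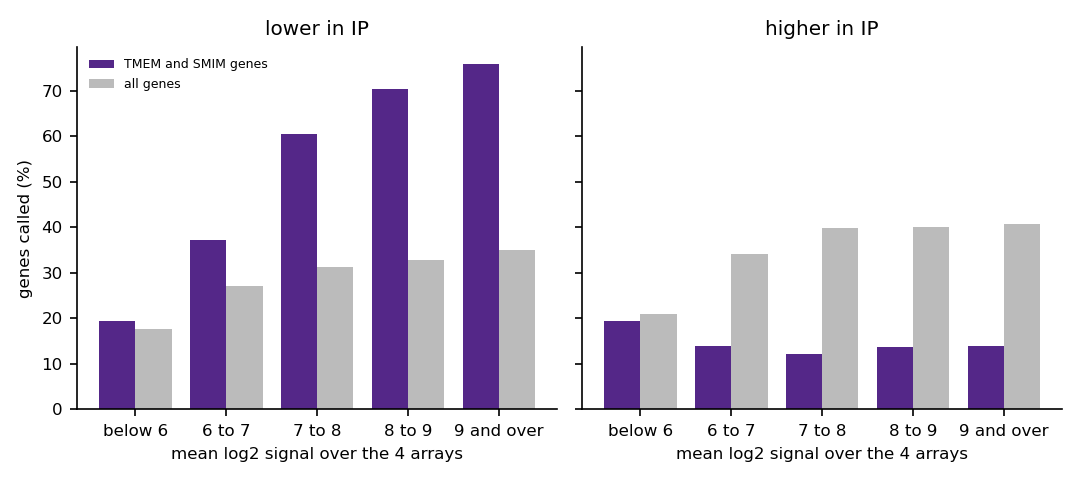
Percentage of genes called lower (left) and higher (right) in the IP by mean log2 signal over the 4 arrays, for TMEM and SMIM genes (purple) and all genes tested (grey). The purple bars on the left climb from 19.4% to 75.9%, and the grey bars from 17.6% to 34.9%.

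The annotated genomic span in GRCh38.p14, introns included, had a median of 13.8 kb for SMIM genes and 17.9 kb for TMEM genes, beside 28.6 kb for all genes with a span. Over all genes the median change was -0.15 for spans under 5 kb and 0.29 for spans of 50 kb or more. Over the members the medians were -0.12 for 32 genes under 5 kb and -0.40 for 35 genes of 50 kb or more. Spearman's rho between span and change was -0.06 across 180 members and 0.23 across 13143 genes, a description across genes on the same arrays, which are not independent. Genomic span is not transcript length, and transcript and protein lengths were not analysed here.

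Probe sets of a gene agreed about as often among members as elsewhere. Of 74 TMEM genes with 2 or more kept probe sets, 55 had changes of a single sign, as did 5 of 6 SMIM genes, or 74.3% and 83.3%, beside 70.3% of 6246 genes in all. In the 55 TMEM genes 37 were lower and 4 higher, with a median of -0.83. Among all genes chosen in this way 1541 were lower and 1922 higher, with a median of 0.18. Probe sets of a class that can cross-hybridize represented 3 SMIM and 44 TMEM genes. With unique probe sets 11 of 15 SMIM genes and 70 of 135 TMEM genes were lower, beside 2858 of 9977 genes in all.

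Other membrane protein families gave a range of medians. Of 8 TMED genes, which encode cargo receptors between ER and Golgi, 5 were lower and none higher, with a median of -1.23. Of 182 genes for solute carriers outside the SLC25 family, 69 were lower and 31 higher, with a median of -0.13. Of 20 tetraspanin genes 7 were lower and 3 higher, with a median of -0.24. The shares lower and higher were 37.9% and 17.0% for the solute carriers and 35% and 15% for the tetraspanins. Over all genes they were 28.8% and 35.0%. These families were chosen after values were seen, and their difference from the TMEM and SMIM genes was not tested.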

How the data were processed

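Per the labels' protocols, biotin-labelled RNA was hybridized to Affymetrix U133 Plus 2.0 arrays. Values are on a log2 scale as deposited, judged from their range. How the authors corrected background, summarized probes and normalized arrays is not given in the sources used here. No detection calls come with the values, and precision is limited by the number of arrays. The array has 54675 probe sets, of which 62 were controls, 41091 had 1 gene symbol in the platform annotation, 1801 had several and 11721 had none. Those with several or none were left out, among them 15 with a TMEM or SMIM symbol. Through the Entrez number 41037 probe sets matched the GRCh38.p14 gene table, and no match was found for TMEM133 and TMEM257. Names from older nomenclature that no longer carry a TMEM symbol are not members.

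The contrast of IP with lysate came from limma (version 3.58.1, R 4.3.3) by lmFit and then eBayes. It had no covariate, 2 residual degrees of freedom and 5.51 from the prior. The SE given with a change is the moderated SE of this fit. Adjustment by Benjamini-Hochberg covered all 13157 genes, at a threshold of 0.05. Tested on simulated data for this contrast, where 200 of 13157 genes had been changed, the fit found 32% of those changed by 0.5 and 100% of those changed by 1, 2 or 3, and made 15 false calls. The adjustment depends on the share of changed genes, and 63.9% of genes were called in the real data. The simulated shares and false calls therefore do not carry over to it. Named genes are all SMIM genes tested, the 12 largest falls and rises among called members with no overlap between IP and lysate arrays, up to 3 genes of each compartment list, and the families that share a number with the 5 widest and 3 narrowest ranges, TMEM167A, TMEM230 and genes next to the filter. Others are said to be named after their values were seen, or are given beside a relative. The members and lists were chosen with earlier results of these data known. Alternatives covered normalization, centring, filter, probe set, replicate block, spread estimate and left-out arrays. A planned description of protein length and hydrophobic stretches was not made. Plots used matplotlib 3.10.9, and tables pandas 2.3.3.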

Additional observations from a re-analysis of the deposited data

Results flagged for a closer look

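The control probe sets for both ends of the ACTB and GAPDH transcripts, which enter no comparison of genes, differed between the groups. The 3' minus 5' difference in log2 signal was 2.99 ± 0.04 in the IP and 1.36 ± 0.02 in the lysate for ACTB (SD, n = 2 each), higher by 1.63 in the IP. For GAPDH it was 0.98 ± 0.06 in the IP and 0.19 ± 0.00 in the lysate, higher by 0.80 in the IP. The part of this in the changes of TMEM and SMIM genes was not tested. Groups of 2 samples are too small for a search for outlying samples.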

How the results depend on the processing

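The medians of both families stayed below 0 under the alternatives run, while sizes moved. Hybridization control centring gave medians of -1.50 for SMIM and -0.96 for TMEM genes, with 0 and 5 higher genes. With no filter on low values the medians were -0.44 and -0.24, their difference -0.20, and 3 SMIM genes were higher, beside 4448 of all 19775 genes. With the stricter filter the TMEM median was -0.83, the difference -0.21, and 0 SMIM genes were higher, beside 3583 of all 8300 genes. When probe sets were averaged the TMEM median was -0.33 and the difference -0.71. A setting added after seeing the data kept genes with several probe sets that all point the same way. There 4 SMIM genes were lower and 0 higher, and 37 TMEM genes were lower and 4 higher. Among all genes of that setting 1541 were lower and 1922 higher. The TMEM median was -0.83 and the difference -0.052. The cause of these moves was not tested, and the last setting and the stricter filter also held fewer genes. Quantile normalization gave 2 higher SMIM genes, and so did the replicate block. With each array left out in turn, 1 to 2 SMIM genes were higher (2 without lysate replicate 2) and 10 to 11 lower, 22 to 25 TMEM genes were higher and 80 to 84 lower, and the difference of medians was -0.61 to -0.46. Restriction to protein-coding members, also added after seeing the data, moved no count past 1.5 times. Under the replicate block 27 TMEM genes were higher and 84 lower, and of the plasma membrane list 2 were lower, against 1 without it. Same-numbered arrays deviated with a correlation of 0.10 across genes, and the labels do not say that a number marks a shared culture. Of 727 values of 63 named genes under an alternative, 675 kept direction and side of the threshold, 27 no longer passed, 16 newly passed and 9 turned. With hybridization control centring the turned ones were SMIM1 (-0.13), SMIM29 (-0.47), TMEM106A (-0.18), TMEM143 (-0.31), TMEM63B (-0.39) and TMEM63C (-0.16). With single arrays left out, SMIM29 ranged from -0.11 to 0.23 (below 0 without IP replicate 1 or lysate replicate 1) and TMEM63B from -0.012 to 0.30 (below 0 without IP replicate 2). Of these genes TMEM106A alone had passed before. The 2 arrays per group limit precision, and low signals have no known floor.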
